A study of Mus musculus with 7 samples.

Results

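The genes described here are 10 peptides and markers that divide cortical interneurons into classes: Sst, Vip, Npy, Cck, Tac1, Crh, Cort, Pdyn, Calb2 and Nos1. They were chosen by symbol from the 17732 genes of the authors' deposited table, and each symbol was found once. RNA came from male 129SvEv mice, an inbred strain, of wild-type genotype; the tissue was medial prefrontal cortex, taken after retrieval of a remote memory. Of the 7 libraries, 3 belong to a treatment group that the labels call CFC and 4 to a group that they call SC, and both groups share strain, sex, genotype and tissue. These names are not spelled out in the labels, which give no age either. They do not say whether each library is a separate animal, so p-values measure the spread between these libraries, which may be technical. The authors deposited 1 comparison with 1 value per gene, so no value of a single library is given here, and the depth per library is unknown. Neither the labels nor the header say which group is the numerator, and each difference is therefore called positive or negative after its sign. In bulk tissue, fewer cells of a type and less RNA per cell cannot be told apart.

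Cortical interneurons release GABA onto nearby neurons, and most classes also release a neuropeptide. Somatostatin cells (Sst) inhibit the dendrites of pyramidal cells, and many of them also make neuropeptide Y (Npy) or cortistatin (Cort). Cells with vasoactive intestinal peptide (Vip) mainly inhibit other interneurons, and part of them hold the calcium-binding protein calretinin (Calb2) or corticotropin-releasing hormone (Crh). Neuronal nitric oxide synthase (Nos1) marks long-range somatostatin and neuropeptide Y cells at high levels and other interneurons at low levels. Cholecystokinin (Cck) marks basket cells, but pyramidal cells transcribe it too, and prodynorphin (Pdyn) and tachykinin 1 (Tac1) are shared with projection neurons of the striatum. All these peptides are cut from longer precursors and act on G protein-coupled receptors.

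Of the 10 genes, 1 had an adjusted p-value under 0.05 in the authors' Wald test, whose columns are named as in DESeq2, and is said here to have passed. It was Cck, and its difference was negative. The same threshold was passed by 67 of 13060 genes with an adjusted p-value, or 0.513%, of which 0.368% were positive and 0.145% negative. The 10 genes were evenly split in sign, 5 positive and 5 negative, with log2 fold changes from -0.44 for Crh to 0.20 for Nos1 in the authors' deposited table. Their median log2 fold change was 0.0053, beside -0.0017 over the 13060 genes. Before adjustment, a p-value under 0.05 belonged to 3 of them, Cck and Pdyn with a negative and Nos1 with a positive sign. Among all tested genes the share was 8.1%, made up of 4.56% positive and 3.54% negative.

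**Figure D1:**
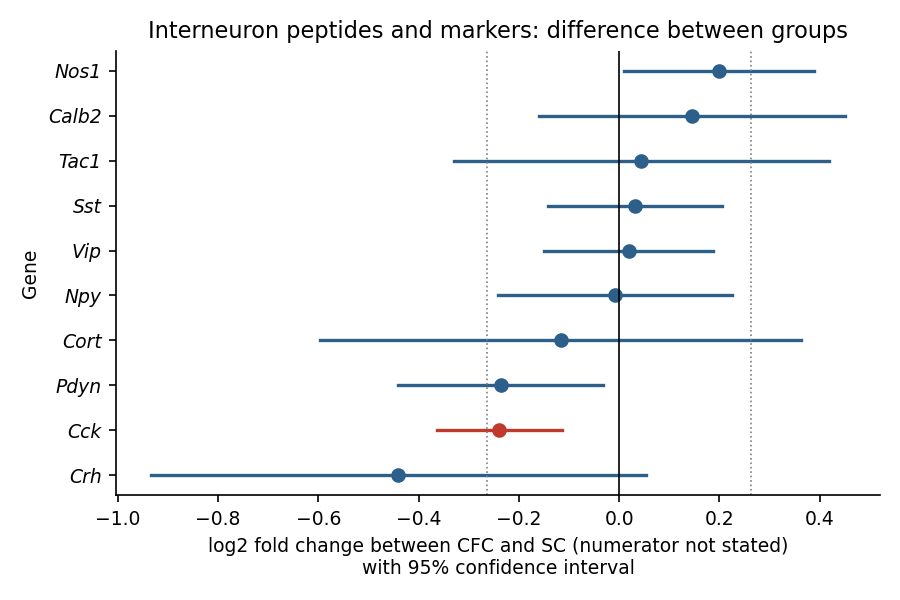
Log2 fold change between the CFC and SC groups (x axis, sign as deposited) for each of the 10 genes (y axis); points are the deposited values, bars are 95% confidence intervals, dotted lines mark a 1.2-fold change either way, and red marks an adjusted p-value under 0.05. Only the intervals of Cck, Pdyn and Nos1 leave out 0, and those of Sst, Vip and Npy lie between the dotted lines.

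The promoters of several peptide genes carry a cAMP response element (CRE), the site through which cAMP and calcium signals reach their transcription, and the one in the somatostatin gene is a textbook example. The tissue was taken after a retrieval session, so the bases just before the start of Cck, the gene that passed, are shown beside those of Sst and Vip, which name the classes and did not pass. Sequences are from RefSeq on GRCm38.p6, 5′ to 3′ on the gene's strand. Those of Cck and Vip are the 100 bases up to the base before the RefSeq start, and that of Sst is 30 bases around its site. Capitals mark the full CRE (TGACGTCA), its partial form of 5 bases (TGACG or CGTCA, which the full site contains) and the E-box CACGTG, searched on both strands.
Cck, chr9:121495695-121495794, minus strand: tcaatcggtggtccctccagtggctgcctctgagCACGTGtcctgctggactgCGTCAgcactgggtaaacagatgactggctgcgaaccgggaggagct
Sst, chr16:23890874-23890903, minus strand: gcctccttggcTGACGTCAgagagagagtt
Vip, chr10:5639118-5639217, plus strand: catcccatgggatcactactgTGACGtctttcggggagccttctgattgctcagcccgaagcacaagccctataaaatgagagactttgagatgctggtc

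The full CRE was found in the promoter of Sst, starting 48 bases before the RefSeq start. Positions are counted from the RefSeq starts, which equal the GENCODE M21 gene starts in Cck, Vip, Npy and Cort. In Sst, Tac1 and Nos1 the RefSeq start lies 114, 182 and 85807 bases inside the GENCODE gene, so their sites, other than the one 197 bases before the start in Tac1, are within the gene spans given for these genes. Of 32851 mouse promoters of the same 300 bases, 1.79% hold the full CRE. The partial form was found 47 bases before that start in Cck, 79 bases before it in Vip, 18 in Cort, 130 in Nos1, and 197 and 43 in Tac1. It occurs in 20.8% of all promoters. The E-box was found 66 bases before that start in Cck and 61 in Tac1, against 7.15% of all promoters. The promoters of Npy and Pdyn held none of the 3 motifs in this window, which says nothing of the factors that bind elsewhere, and those of Crh and Calb2 were not used here. Of the 378 tested genes with the full CRE, 174 were positive, the median log2 fold change was -0.01 and 2 passed (0.529%). Of the 9971 genes without it, 4946 were positive, the median was -0.0012 and 45 passed (0.451%).

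The tissue held abundant transcripts of cortical excitatory neurons, with a mean normalized count of 34713 for Slc17a7 in the authors' deposited table. In this RNA the 10 genes spanned a wide range of abundance. Their mean normalized counts in the authors' deposited table ran from 51.6 for Crh to 4265 for Cck. Per kb of annotated exon, a rough scale for setting different genes side by side, Sst was highest at 3489 and Cck followed at 3268 normalized counts per kb. Npy stood at 1428 normalized counts per kb, well below that pair. Nos1, Vip, Pdyn and Calb2 formed a middle group at 204, 186, 174 and 134 normalized counts per kb. The lowest levels were those of Cort, Tac1 and Crh, at 79.4, 43.3 and 39.1 normalized counts per kb. These are means over all 7 libraries, so whether neighbours in this order differ beyond their spread was not tested. The glutamate decarboxylases that make GABA in all interneurons, Gad1 and Gad2, lay at 632 and 697 normalized counts per kb, so the Sst and Npy transcripts exceeded both on this scale. This order rests on the divisor, which counts all annotated exons of a gene. By mean normalized count Sst and Npy, at 2516 and 808, lay below Gad1 and Gad2, at 4826 and 4095.

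**Figure D2:**
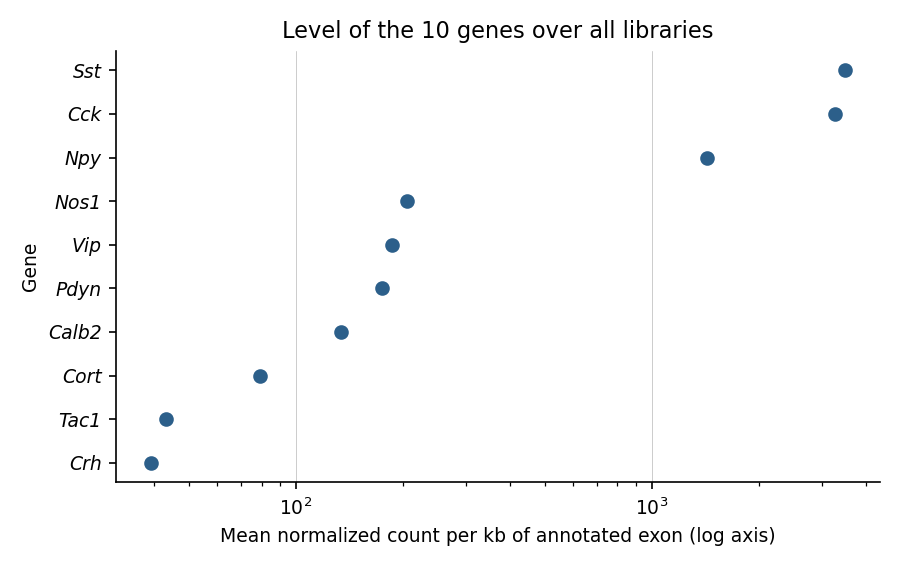
Mean normalized count per kb of annotated exon over all libraries (x axis, log scale) for each of the 10 genes (y axis). Sst, Cck and Npy sit at 1428 or above and the other 7 genes between 39.1 and 204 normalized counts per kb.

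Cck (ENSMUSG00000032532; GRCm38, chromosome 9, 121489824 to 121495694, minus strand, protein-coding) encodes the precursor of cholecystokinin, a peptide released by basket interneurons and made by many pyramidal cells. Its log2 fold change was -0.24 (SE 0.06), with adjusted p = 0.0436 in the authors' deposited table. This is a ratio of 0.847, with a 95% confidence interval from 0.777 to 0.924. By unadjusted p-value it was number 60 of the 13060 genes. The call was narrow. The adjusted p-value was 0.0526 when every gene with an unadjusted p-value entered the adjustment, 1 with a Bonferroni adjustment, and 1 when tested against a change of up to 1.2-fold, and so lost in each of these settings. The last of these followed from the estimate, which is itself smaller than a 1.2-fold change. Whether 1 library carries the difference was not tested. Its main cortical receptor, Cckbr, had a log2 fold change of -0.12, with an interval from -0.27 to 0.02 and adjusted p = 0.816 in the authors' deposited table.

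Because pyramidal cells make Cck, markers of these cells and of their layers were set beside it. Of 10 excitatory neuron markers, 5 were positive and 5 negative, around a log2 median of -0.02, and the vesicular glutamate transporter Slc17a7, one of their defining markers, was at -0.03 (SE 0.05) in the authors' deposited table. Camk2a, the abundant kinase of excitatory synapses, passed with a log2 fold change of -0.29 and adjusted p = 0.00151 in the authors' deposited table. Of 10 upper-layer markers, 9 were negative, with a median of -0.24, and 2 passed. These were Rasgrf2 and Otof, with log2 fold changes of -0.31 and -0.42 and adjusted p = 0.0361 and 0.0496 in the authors' deposited table. All 12 deep-layer markers were positive, with a median of 0.53, and 6 passed, among them Foxp2 at 0.73 and Tle4 at 0.33 in the authors' deposited table. The difference of Cck thus had the sign of the upper-layer list and the opposite sign to the deep-layer list. The part of layer markers in the Cck result was not tested, and the spread of these lists over single libraries was not analysed here.

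Sst (ENSMUSG00000004366; chromosome 16, 23889573 to 23890958, minus strand) had a log2 fold change of 0.03 (SE 0.09), with adjusted p = 0.999 in the authors' deposited table. Its 95% interval, from -0.14 to 0.20, leaves out a change of 1.2-fold, which is 0.26 on the log2 scale. Npy (ENSMUSG00000029819; chromosome 6, 49822710 to 49829507, plus strand), which somatostatin cells and neurogliaform cells make, was at -0.0082 (SE 0.12) in the authors' deposited table. The interval of Npy ran from -0.24 to 0.22 and left out the same size of change. Vip (ENSMUSG00000019772; chromosome 10, 5639218 to 5647617, plus strand) had a log2 fold change of 0.02 (SE 0.09) and an interval from -0.15 to 0.19 in the authors' deposited table. The main peptides of the somatostatin, neuropeptide Y and Vip classes therefore differed between the groups by less than 1.2-fold within these 95% intervals. The adjusted p-values of Npy and Vip were 0.999 and 0.999 in the authors' deposited table.

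Cort (ENSMUSG00000028971; chromosome 4, 149125034 to 149126763, minus strand) encodes cortistatin, a relative of somatostatin that binds the same receptors. Its log2 fold change was -0.12 (SE 0.24), with adjusted p = 0.999 in the authors' deposited table. At a mean count of 53.7 its interval ran from -0.60 to 0.36 and did not leave out a change of 1.2-fold of either sign. The 2 precursors end in nearly the same peptide, and the coding bases of that end are shown because reads of such relatives could be confused. Each is a stretch of 45 coding bases from GENCODE M21, with 3 further bases to the end of the reading frame in Sst (the stop codon) and 6 in Cort, and with capitals at the positions that are the same in both.
Sst: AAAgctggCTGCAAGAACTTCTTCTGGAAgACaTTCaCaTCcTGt
Cort: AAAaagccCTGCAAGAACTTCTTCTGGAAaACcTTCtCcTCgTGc

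In that stretch 34 of 45 positions, or 75.6%, were identical. The longest identical run between the annotated Sst and Cort transcripts was 21 bases. The length of the authors' reads is not given in the sources used here.

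Crh (ENSMUSG00000049796; chromosome 3, 19693401 to 19695396, minus strand), the peptide that starts the hormonal stress response in the hypothalamus and is made by part of the Vip cells in cortex, had the lowest log2 fold change of the 10. It was -0.44 (SE 0.25), with an unadjusted p-value of 0.0805 and adjusted p = 0.772 in the authors' deposited table. The interval of Crh ran from -0.93 to 0.05. With a mean count of 51.6 it was the least abundant of the 10, and only a change of about 1.90-fold or more would have reached the smallest Wald statistic among the genes that passed, 3.68 in size. For Sst, Vip and Cck that limit was 1.25-fold, 1.25-fold and 1.18-fold, so a 1.2-fold change in Sst or Vip would not have reached it either. Crh and Cort are thus the members for which these libraries say least.

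Pdyn (ENSMUSG00000027400; chromosome 2, 129686565 to 129699844, minus strand) is the precursor of the dynorphins, which act on the kappa opioid receptor. Its log2 fold change of -0.24 (SE 0.10) was nearly that of Cck, with an interval from -0.44 to -0.03 in the authors' deposited table. The unadjusted p-value of Pdyn was 0.0234 and the adjusted one 0.501 in the authors' deposited table, so it did not pass. Tac1 (ENSMUSG00000061762; chromosome 6, 7554879 to 7565834, plus strand), the precursor of substance P, was at 0.04 (SE 0.19), with adjusted p = 0.999 in the authors' deposited table. The interval of Tac1 ran from -0.33 to 0.42.

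Pdyn and Tac1 are also made by the striatal projection neurons that carry the dopamine receptor Drd1, so a list of striatal markers was set beside them. Of 10 such genes with an adjusted p-value, 8 were positive, around a log2 median of 0.64, and 1 passed. The gene that passed was Drd1, with a log2 fold change of 0.76 and adjusted p = 3.66e-05 in the authors' deposited table. The standard errors of the list had a median of 3.35 times that of the genes nearest in mean count. For Drd1 itself this ratio was 1.25, so it is not typical of the list. The interval of Drd1, from 0.50 to 1.02, lay above those of Pdyn and Tac1. Ppp1r1b, a signalling protein abundant in these neurons, was at 0.70 with adjusted p = 0.189, and Penk, the enkephalin precursor, at 0.59 with adjusted p = 0.823 in the authors' deposited table. The sign of Pdyn was thus opposite to that of most of the striatal list. Their difference itself was not tested, because the covariance between genes cannot be had from this table.

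Nos1 (ENSMUSG00000029361; chromosome 5, 117781032 to 117958840, plus strand) makes nitric oxide in neurons and had the highest log2 fold change of the 10. It was 0.20 (SE 0.10), with an interval from 0.01 to 0.39 in the authors' deposited table. The unadjusted p-value of Nos1 was 0.0399 and the adjusted one 0.606 in the authors' deposited table, so it did not pass. In GENCODE M21 an exon of the antisense gene Gm26995 overlaps exons of Nos1, and without the strand setting reads of the pair cannot be told apart. No other member shares exon bases with another annotated gene. Calb2 (ENSMUSG00000003657; chromosome 8, 110137502 to 110168210, minus strand), calretinin, was at 0.15 (SE 0.16), with adjusted p = 0.984 in the authors' deposited table. The interval of Calb2 ran from -0.16 to 0.45.

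**Figure D3:**
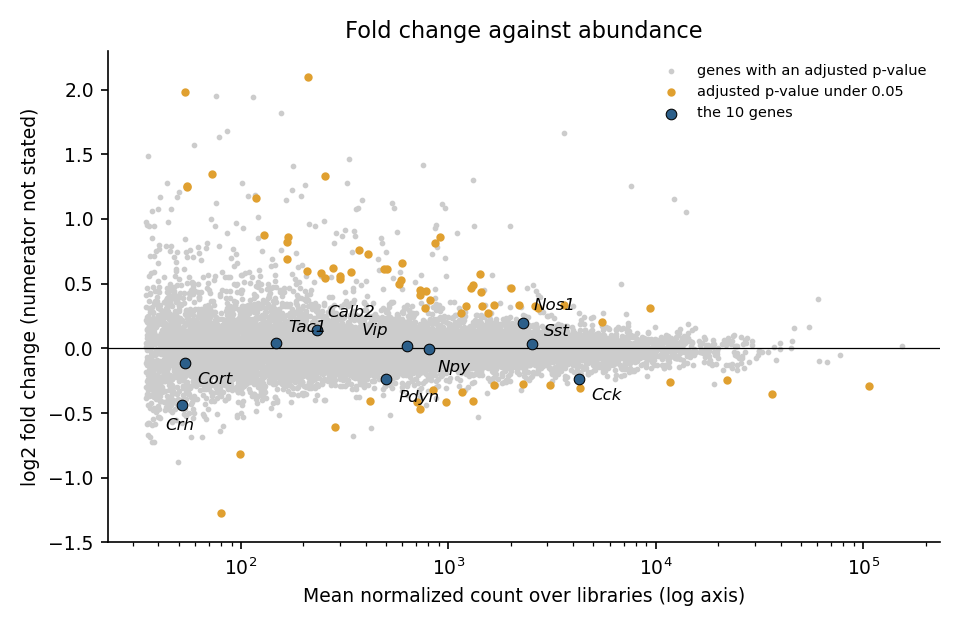
Log2 fold change (y axis, sign as deposited) against mean normalized count over libraries (x axis, log scale) for the 13060 genes with an adjusted p-value; orange marks the 67 genes that passed 0.05 and blue the 10 genes, and 4 genes lie outside the vertical range. Cck is the only blue point among the genes that passed, and Crh and Cort lie at the left, where the spread of all genes is widest.

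The standard errors, which the authors estimated from the libraries, give only an indirect view of the spread of each transcript within the groups. With no value of a single library, technical and biological spread cannot be told apart. Each standard error was divided by the median standard error of the 200 genes nearest in mean count. The ratio ran from 0.98 for Vip to 1.51 for Nos1, with a median of 1.16 over the 10 genes. Vip, Cort and Crh had the error usual for their abundance, at ratios of 0.98, 0.98 and 0.99, and Cck and Pdyn stood at 1.09 and 1.09. Nos1, Npy and Sst stood higher, at 1.51, 1.46 and 1.40, and Calb2 and Tac1 at 1.23 and 1.22. Each of these 5 genes had a larger error than at least 96.5% of its 200 neighbours. In the oligodendrocyte list the ratios ran from 3.16 to 9.04, above those of all 10 members. Whether the same libraries widen the errors of both was not tested.

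**Figure D4:**
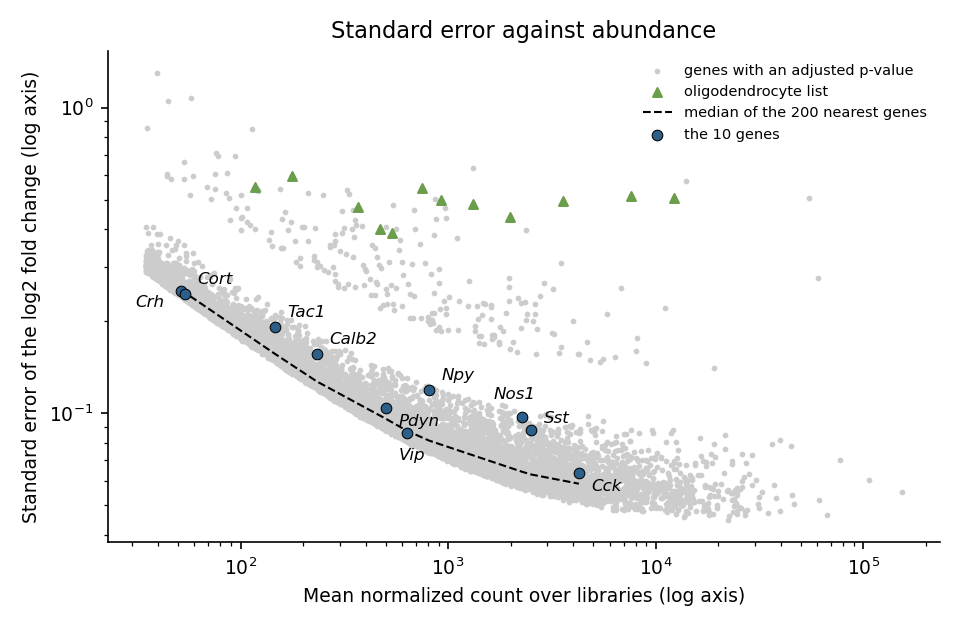
Standard error of the log2 fold change (y axis, log scale) against mean normalized count (x axis, log scale) for the 13060 genes with an adjusted p-value; blue points are the 10 genes, green triangles the 12 oligodendrocyte markers, and the dashed line joins the medians of the 200 genes nearest to each of the 10. Nos1, Npy, Sst, Calb2 and Tac1 lie above the dashed line, and Vip, Cort and Crh lie on it.

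The receptors for these peptides were measured in the same libraries. Of 19 receptor genes, 18 were listed and 13 had an adjusted p-value, and none of these passed. Among the 13, 4 were positive and 9 negative around a median of -0.10 on the log2 scale, and before adjustment 3 had a p-value under 0.05. For somatostatin and cortistatin, Sstr2 and Sstr4 were positive at 0.25 and 0.25, with unadjusted p = 0.00986 and 0.034 and adjusted p = 0.361 and 0.58 in the authors' deposited table. The sister receptors Sstr1 and Sstr3 were at -0.01 and -0.19 in the authors' deposited table, so the family had no common sign. For neuropeptide Y, Npy1r was at -0.24 with an unadjusted p-value of 0.00935 and an adjusted one of 0.356, and Npy2r and Npy5r were at -0.17 and -0.10 in the authors' deposited table. The 3 Npy receptors were thus negative beside a ligand close to 0, and none of them passed.

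Crhr1, the main cortical receptor of Crh, was at -0.21 with an interval from -0.44 to 0.01 and adjusted p = 0.69 in the authors' deposited table. Crh and Crhr1 were therefore both negative and both short of the threshold. For Vip, the receptor Vipr1 was at -0.03, and for the dynorphins the receptor Oprk1 was at 0.0065 in the authors' deposited table. Tacr1, the receptor of substance P that also marks some nitric oxide synthase cells, was at 0.24 with an interval from -0.24 to 0.73 in the authors' deposited table. Tacr2 and the other 4 receptors without an adjusted p-value had mean counts of 21.3 or less, too low for the authors' filter.

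Downstream of Nos1, nitric oxide acts on soluble guanylate cyclase and, through cyclic GMP, on protein kinase G. Of 9 genes of this pathway with an adjusted p-value, 4 were positive and 5 negative around a median of -0.03 on the log2 scale, and none passed. Before adjustment, a p-value under 0.05 belonged to 2, both negative. Gucy1a1, a cyclase subunit, was at -0.18 and Dlg4, the scaffold that holds Nos1 at the synapse, at -0.11, with adjusted p = 0.636 and 0.442 in the authors' deposited table. Among the other cyclase subunits with an adjusted p-value, Gucy1b1 was at -0.03 and Gucy1a2 at 0.09 in the authors' deposited table.

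Enzymes and granule proteins that turn precursors into peptides lay in a narrow range. Among 18 of them, 7 were positive and 11 negative, around a log2 median of -0.01 and between -0.12 and 0.22, and none passed, with 2 under an unadjusted p-value of 0.05. Cpe, the carboxypeptidase that trims the cut peptides, was at -0.03 with an interval from -0.12 to 0.07, chosen after its value was seen for its role. Pam, which adds the amide that cholecystokinin and neuropeptide Y need, was at -0.12 with adjusted p = 0.703, and Cadps2, a protein of dense-core granule release, at 0.22 with adjusted p = 0.515 in the authors' deposited table. Among 12 other cortical peptides and secreted markers, 3 were positive and 9 negative, with a median of -0.05, and none passed, with 1 under an unadjusted p-value of 0.05. Adcyap1, a peptide related to Vip, was at -0.21 with an unadjusted p-value of 0.0377 and an adjusted one of 0.596 in the authors' deposited table.

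**Figure D5:**
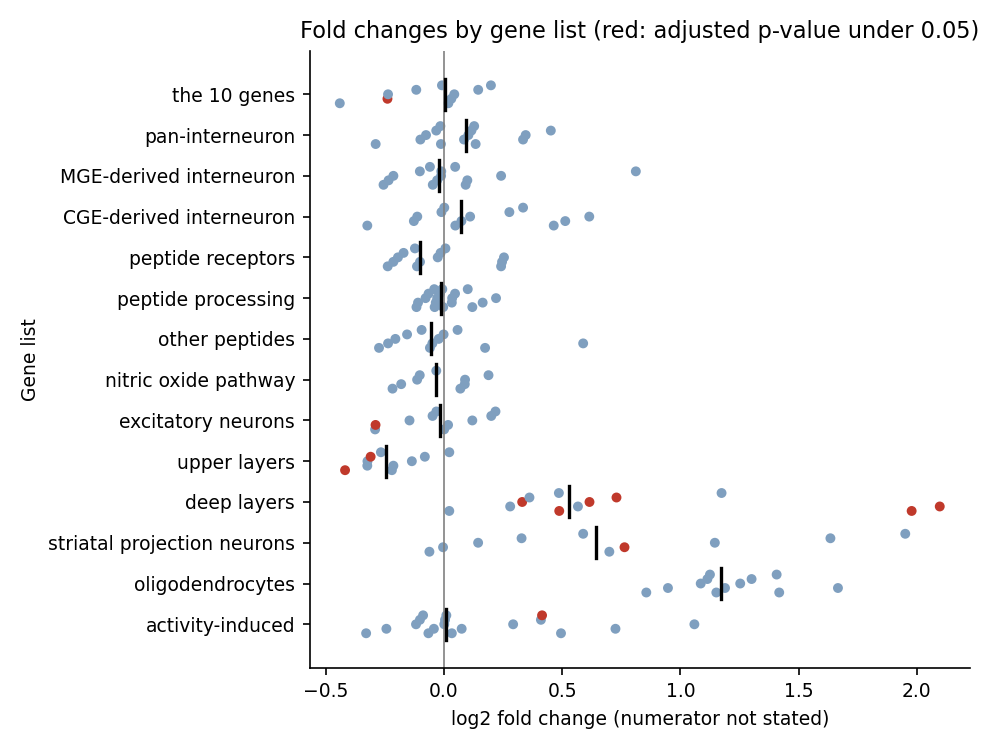
Log2 fold changes (x axis, sign as deposited) of the genes with an adjusted p-value in each gene list (y axis); each point is a gene, black bars are list medians, and red marks an adjusted p-value under 0.05. The 10 genes have a median of 0.0053, the upper-layer list lies at negative values with a median of -0.24 and the deep-layer list at positive values with a median of 0.53.

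A list of general interneuron genes was set beside the peptides as a rough measure of interneuron RNA as a whole. Not every gene of this list, which includes Maf and Npas1, need be made by all classes. Of 14 such genes, 8 were positive and 6 negative around a median of 0.09 on the log2 scale, and none passed. Gad1, Gad2 and the vesicular GABA transporter Slc32a1 were at -0.01, 0.09 and -0.08, with intervals from -0.14 to 0.12, from -0.03 to 0.20 and from -0.23 to 0.08 computed from the authors' deposited table. The transcripts of the GABA machinery thus differed by less than 1.2-fold within these intervals. Before adjustment, a p-value under 0.05 belonged to 4 of the 14, among them Dlx2 and Dlx6os1 at 0.45 and 0.35 and Maf at -0.29 in the authors' deposited table. For Maf, adjusted p = 0.136 in the authors' deposited table, so it did not pass. Dlx2 and Dlx6os1 belong to the homeobox programme of forebrain GABA neurons, which striatal neurons use too.

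Interneurons come from the medial and the caudal ganglionic eminence (MGE and CGE) of the embryo, and Sst cells belong to the first and Vip cells to the second. Of 14 MGE markers with an adjusted p-value, 5 were positive and 9 negative around a median of -0.02 on the log2 scale, and none passed, with 3 under an unadjusted p-value of 0.05. Lhx6, the transcription factor that defines this lineage, was at -0.01 with an interval from -0.18 to 0.16, and Pvalb, the marker of fast-spiking basket cells, at -0.23 with an interval from -0.82 to 0.35 computed from the authors' deposited table. Calb1 was at -0.21, with adjusted p = 0.395 in the authors' deposited table, and also stands on the upper-layer list. Of 13 CGE markers, 9 were positive and 4 negative, with a median of 0.07, and none passed, with 2 under an unadjusted p-value of 0.05. Prox1, a transcription factor that Vip cells keep into adulthood, was at 0.46 with an unadjusted p-value of 9.5e-04 and an adjusted one of 0.117 in the authors' deposited table. Lamp5, a marker of neurogliaform cells that is also on the upper-layer list, was at -0.32 with adjusted p = 0.793 in the authors' deposited table.

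Peptide genes such as Sst, Npy and Crh can follow neuronal activity, so activity-induced genes were set beside them. Of 18 such genes, 11 were positive and 7 negative around a median of 0.0076 on the log2 scale, and 1 passed. Before adjustment 7 had a p-value under 0.05, 5 of them positive and 2 negative. The gene that passed, Nr4a3, was at 0.42 with adjusted p = 0.00643 in the authors' deposited table. Egr2, Fos, Nr4a2 and Egr1, transcription factors induced quickly by activity, were at 1.06, 0.73, 0.50 and 0.41, with adjusted p = 0.197, 0.257, 0.26 and 0.55 in the authors' deposited table. Nptx2, a secreted protein induced by activity, was at -0.33 and Egr3 at -0.24, with adjusted p = 0.387 and 0.158 in the authors' deposited table. The genes named so far from this list are the 7 with an unadjusted p-value under 0.05. Others of the list lay near 0, among them Arc, Npas4, Fosb and Egr4 at 0.0017, -0.04, 0.03 and 0.0048. The interval of Arc was wide, from -0.68 to 0.68. Junb lay further from 0, at 0.29 with an interval from -0.14 to 0.73. Beside this list, whose median was near 0 too, Cck was negative and Sst, Npy and Vip were near 0. Crh was at -0.44, with an interval from -0.93 to 0.05.

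Cells other than neurons were followed with 4 more lists, none of whose genes passed. All 12 oligodendrocyte markers were positive, with a median of 1.17 and 12 under an unadjusted p-value of 0.05. Astrocyte, microglia and endothelial markers, 8 of each, had medians of -0.10, -0.11 and -0.16, with 2, 2 and 3 genes under an unadjusted p-value of 0.05. Of the endothelial markers all 8 were negative, of the microglial ones 7 and of the astrocytic ones 6. None of the members lay near the oligodendrocyte median, and the part of these cells in the values of the members was not tested.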

How the data were processed

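Polyadenylated RNA was sequenced from 7 libraries, 3 CFC and 4 SC, each made from 100 ng of total RNA with the KAPA mRNA HyperPrep kit, per the labels' protocols. Trimmomatic, Subread and DESeq2 and the genome build mm10 are named in the submitters' processing notes. Versions, annotation, strand setting and read length are not given in the sources used here. Per the file headers, the authors deposited for each gene a mean normalized count (a signal averaged over libraries), a log2 fold change, its standard error on the log2 scale, a Wald statistic (a score), and the p-value before and after adjustment. In all 17732 genes the Wald statistic was the quotient of fold change and error, within 1e-06. The authors' filter left 13060 genes with an adjusted p-value, none with a mean count under 34.9.

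Calls use the authors' adjusted p-values, in columns named as DESeq2 names them, at a threshold of 0.05. Confidence intervals (95%) extend from the log2 fold change by the standard error multiplied by the normal quantile, and cover the error the authors estimated. Exon lengths, positions and overlaps came from GENCODE M21 (GRCm38, the assembly called mm10), and promoters from RefSeq. Levels per kb divide the mean count by the union of annotated exons. No test was run on gene lists, which are described by counts and medians. The recomputed adjustments were tested on simulated data. The members and lists were chosen with earlier results of these data known. Genes named are the 10 members, Pvalb, Gad1, Gad2, Slc32a1 and Lhx6, and from the other 16 lists genes that passed or had the 2 lowest unadjusted p-values of each sign; of these, the text prints those that bear on a member, and some are not reported here. Receptors paired with a member's peptide, Slc17a7, Gucy1b1, Gucy1a2, Cpe, Penk, Fos, Nr4a2 and Egr1 were named for their roles after their values had been seen. Arc, Npas4, Fosb, Egr4 and Junb were named, also after their values had been seen, to stand beside the other activity-induced genes. Alternatives were another threshold, other filters on the mean count, a Bonferroni adjustment, a null hypothesis of a 1.2-fold change and centring of the fold changes. Python 3.11.15, pandas 2.3.3 and scipy 1.17.1 were used.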

Additional observations from a re-analysis of the deposited data

How the results depend on the processing

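No paired analysis was possible because only group comparisons, not library values, were at hand, and for the same reason leaving out a library was not run. Of the 10 members, 1 passed. The count was 0 when every gene with a p-value entered the adjustment, where the adjusted p-value of Cck was 0.0526. It was also 0 with a Bonferroni adjustment and 0 against a change of at most 1.2-fold, both stricter by construction. At an unadjusted p-value under 0.05 the count was 3. A threshold of 0.1 and a minimum mean count of 100 each kept Cck as the single member that passed. Over all genes, 67 passed, and 101 at a threshold of 0.1, 21 with Bonferroni, 2 against a 1.2-fold change and 1058 at an unadjusted p-value under 0.05. Over the other 16 lists, 11 genes passed, and 7, 2 and 66 under the last 3 of these settings. Centred on the median of the general interneuron list, 0.09, the log2 fold changes of Sst, Vip and Tac1 turned negative, at -0.063, -0.075 and -0.050. Centred on that of the excitatory list, -0.02, Npy turned positive, at 0.0072. The signs of these 4 genes are therefore not resolved. Those of Crh, Cort and Calb2 did not turn, but their confidence intervals cover 0 too, so their signs are not resolved either. In all, the intervals of 7 of the 10 members cover 0. Cck, at -0.24, stayed negative under every centring and reached -0.33 against the interneuron list. All shifts were too small to turn its sign, so this is no test of it. Depth per library is unknown and limits Crh and Cort most.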
